A study of Mus musculus with 6 samples.

Results

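The heat shock protein and DnaJ chaperone families were examined in cells of mouse cortex, sorted to enrich neurons, on day 4 after stroke. Members were the gene symbols of the deposited table that begin with Hspa, Hspb, Hspd, Hspe or Hsph and a number, with Hsp90, or with Dnaja, Dnajb or Dnajc and a number. This gave 72 of the 24419 genes, 27 with Hsp symbols and 45 with Dnaj symbols. The families held 3 Hsp90, 13 Hspa, 1 Hsph, 1 Hspd, 1 Hspe, 8 Hspb, 4 Dnaja, 13 Dnajb and 28 Dnajc genes.

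RNA sequencing was done on 6 libraries from male mice, all with loxP-flanked Padi4 alleles (Padi4flox/flox) and all taken after the middle cerebral artery had been occluded for 60 minutes. The 3 libraries labelled cKO came from Slc17a7-cre; Slc32a1-cre; Padi4flox/flox mice, in which Cre is driven from the loci of the vesicular transporters of glutamatergic and GABAergic neurons. The 3 libraries labelled control came from Padi4flox/flox mice without Cre. Tissue around the infarct was digested with pronase for 75 minutes, and the cells were sorted for Thy1-positive cells negative for ACSA2, CD31, CD45 and O4. Mouse ages, strain and any pooling of animals were not given in the sources used here. Nothing states that each library stands for its own animal, so the p-values cover a spread between samples that may be technical.

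Recovered depth was 10094145 to 24056755 reads per library, of which 54216 to 199764 fell on the 72 members. Both libraries numbered 2 had the fewest detected genes of their group, 14042 for cKO and 15261 for control. Padi4 did not bear out the labels, with 0, 3 and 12 reads in the libraries labelled cKO and 0 reads in each library labelled control, below floors of 0.277, 0.221 and 0.167 scaled CPM. All directions below are therefore those of the labels. Neuronal RNA was not the main part of the marker signal. Summed over 16 markers each, the oligodendrocyte list was above the neuronal list in every library, at 13277 to 42225 against 1718 to 8714 scaled CPM in the libraries labelled cKO and at 25088 to 33995 against 3119 to 5104 in those labelled control. The 12 microglia and macrophage markers summed to at most 99.6 in any library. In such mixed samples, fewer cells of a type and less RNA per cell cannot be told apart.

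Heat shock proteins are molecular chaperones that bind unfolded or partly folded proteins. Hsp70 proteins, encoded by the Hspa genes, hold clients in a cycle of ATP binding and hydrolysis. DnaJ proteins deliver the clients and speed the hydrolysis through their J domain, and Hsp110 proteins such as Hsph1 exchange the nucleotide. Hsp90 proteins act later on signalling proteins, Hspd1 and Hspe1 form the mitochondrial folding chamber, and small Hspb proteins hold clients without ATP. Heat shock factor 1 induces the cytosolic members under proteotoxic stress, and the unfolded protein response induces those of the endoplasmic reticulum. In ischaemic brain, the induction of Hsp70 is a classic stress marker.

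The stretches below are RefSeq promoters on GRCm38.p6, 250 bases before to 50 after a start site, chosen with the values known. Hsph1 and Hspa1a are on the stress-inducible list, and Hspa5, Hsp90b1 and Dnajc3 on the endoplasmic reticulum list. Hspe1 is on the mitochondrial list and Dnajb6 on the aggregate-handling list. Capitals mark only the motif named for each promoter. Other matches stay in lower case, such as TTCNNGAA at -33 in Hsph1. In the Hsph1 promoter (chr5:149636287-149636586, minus strand), the Hspe1 promoter (chr1:55087898-55088197, plus strand) and the Dnajb6 promoter (chr5:29735648-29735947, plus strand), capitals mark the heat shock element of 3 units, GAANNTTC followed directly by NNGAA, on either strand. In Hspe1 a pair of matches overlap into a longer run. In the Hspa1a promoter (chr17:34972107-34972406, minus strand), capitals mark the shorter GAANNTTC. In the promoters of Hspa5 (chr2:34771840-34772139, plus strand), Hsp90b1 (chr10:86705395-86705694, minus strand) and Dnajc3 (chr14:118937682-118937981, plus strand), capitals mark the endoplasmic reticulum stress element, CCAAT and CCACG with NNNNNNNNN between them, on either strand.
Hsph1: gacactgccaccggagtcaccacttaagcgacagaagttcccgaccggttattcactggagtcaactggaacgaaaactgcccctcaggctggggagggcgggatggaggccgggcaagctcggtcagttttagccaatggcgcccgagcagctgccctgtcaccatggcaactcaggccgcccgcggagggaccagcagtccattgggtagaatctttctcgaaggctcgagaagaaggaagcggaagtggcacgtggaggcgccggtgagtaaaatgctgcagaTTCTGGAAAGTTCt
Hspe1: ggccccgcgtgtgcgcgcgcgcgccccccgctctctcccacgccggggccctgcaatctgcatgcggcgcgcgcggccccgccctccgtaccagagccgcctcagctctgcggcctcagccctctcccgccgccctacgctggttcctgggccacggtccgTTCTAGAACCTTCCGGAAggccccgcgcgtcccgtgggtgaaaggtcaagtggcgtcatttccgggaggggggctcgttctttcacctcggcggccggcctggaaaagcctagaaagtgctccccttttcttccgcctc
Dnajb6: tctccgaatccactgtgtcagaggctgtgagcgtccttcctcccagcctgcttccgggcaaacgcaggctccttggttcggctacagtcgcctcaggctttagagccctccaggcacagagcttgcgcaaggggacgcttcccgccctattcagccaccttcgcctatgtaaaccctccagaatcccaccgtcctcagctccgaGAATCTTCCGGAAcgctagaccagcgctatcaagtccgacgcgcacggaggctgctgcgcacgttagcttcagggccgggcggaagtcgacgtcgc
Hspa1a: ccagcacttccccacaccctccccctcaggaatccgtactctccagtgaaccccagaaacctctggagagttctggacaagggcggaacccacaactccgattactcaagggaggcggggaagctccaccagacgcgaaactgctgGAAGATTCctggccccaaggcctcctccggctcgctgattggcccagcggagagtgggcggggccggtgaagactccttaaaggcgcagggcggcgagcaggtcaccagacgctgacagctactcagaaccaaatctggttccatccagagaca
Hspa5: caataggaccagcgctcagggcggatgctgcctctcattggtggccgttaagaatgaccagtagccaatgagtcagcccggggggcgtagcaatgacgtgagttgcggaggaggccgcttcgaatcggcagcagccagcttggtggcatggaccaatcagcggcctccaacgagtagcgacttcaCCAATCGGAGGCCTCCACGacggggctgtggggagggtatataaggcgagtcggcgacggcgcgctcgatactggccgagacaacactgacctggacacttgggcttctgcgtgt
Hsp90b1: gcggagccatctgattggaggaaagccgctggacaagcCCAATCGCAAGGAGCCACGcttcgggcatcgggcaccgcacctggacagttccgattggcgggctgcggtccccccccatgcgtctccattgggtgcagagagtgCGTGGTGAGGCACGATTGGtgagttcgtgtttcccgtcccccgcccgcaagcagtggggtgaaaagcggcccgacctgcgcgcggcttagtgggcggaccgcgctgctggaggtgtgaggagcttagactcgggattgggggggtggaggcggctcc
Dnajc3: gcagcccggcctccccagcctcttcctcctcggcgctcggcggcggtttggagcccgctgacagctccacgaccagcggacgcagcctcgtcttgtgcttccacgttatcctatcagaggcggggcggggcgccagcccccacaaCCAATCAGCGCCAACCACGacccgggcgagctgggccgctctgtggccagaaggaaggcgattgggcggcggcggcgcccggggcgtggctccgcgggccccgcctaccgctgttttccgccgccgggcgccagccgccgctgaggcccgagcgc

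RefSeq promoters were given for 58 of the 72 members, 75 promoters in all. The element of 3 units contains both GAANNTTC and TTCNNGAA. It was found in 6 of the 75 member promoters (8%), against 198 of all 32851 promoters (0.603%). By gene, these were Hspd1, Hspe1, Hsph1 and Dnajb6, 4 of 58 members (6.90%), against 0.662% of all genes with a promoter. Hsph1 and Dnajb6 each had 2 overlapping windows that hold the same site, so the 6 promoters are not separate finds. GAANNTTC, with or without the added unit, was in 21.3% of member promoters and 7.86% of all promoters. TTCNNGAA was in 10.7% and 8.52%. The endoplasmic reticulum element was in 3 member promoters (4%), those of Hspa5, Hsp90b1 and Dnajc3, against 39 of all promoters (0.119%). With the start site counted as 0, the Hspe1 match began at -89, the Hspa1a match at -104 and the Hspa5 match at -65. The printed Hsph1 match began at 36, after the start site. Both mouse Hspa1a and Hspa1b carried GAANNTTC at -104. Such matches describe letters in these windows, not binding. Hspd1 and Hspe1 lie head to head on chromosome 1 with start sites 111 bases apart and exons that overlap by 112 bases, so they share these letters.

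Of the 72 members, 61 passed the filter of a value of at least 1 scaled CPM in at least 3 libraries and were tested, and all 61 were detected in all 6 libraries. The other 11 were Dnajb3, Dnajb7, Dnajb8, Dnajb13, Dnajc5b, Dnajc5g, Dnajc22, Hspb2, Hspb3, Hspb7 and Hspb9, with values of at most 2.86 in any library. Dnajb8 had 0 reads in all 6 libraries, below floors of 0.126 to 0.303 scaled CPM. Values are the deposited scaled CPM, which are not corrected for gene length. Per kilobase of exon, Hsp90ab1 had the highest mean level over the 6 libraries at 331 scaled CPM per kb. Hsp90aa1 followed at 253, Hspa8 at 209.7, Hsp90b1 at 136 and Hspa5 at 83.9, against a median of 5.65 over all tested genes with a length. The 5 members with the highest mean, the same ones, made up 50.4% of the summed value of all members.

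No member passed the threshold in the comparison of the labels. In limma over all 14796 tested genes, 0 members passed an adjusted p of 0.05 in either direction, where the background was 0% of genes in each direction. At an unadjusted p under 0.05 the counts were 0 members in either direction, against 0.338% of all genes higher and 0.514% lower. On recovered reads edgeR and DESeq2 also called 0 members, where the background was 0% in edgeR and, in DESeq2, 0% of genes higher and 0.00678% lower. At an unadjusted p under 0.05 they gave 0 members as well, where the background was 0.277% of genes higher and 0.216% lower in edgeR and 0.657% higher and 0.529% lower in DESeq2. By sign, 28 members were higher and 33 lower, with a median log2 fold change (labelled cKO minus labelled control) of -0.06, beside -0.02 over all tested genes. The counts were 41 higher and 20 lower without cKO replicate 2, and 20 higher and 41 lower without cKO replicate 3. The median turned to 0.10 without cKO replicate 2, 0.05 without control replicate 1 and 0.01 without control replicate 3, and was -0.28 without control replicate 2.

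**Figure D1:**
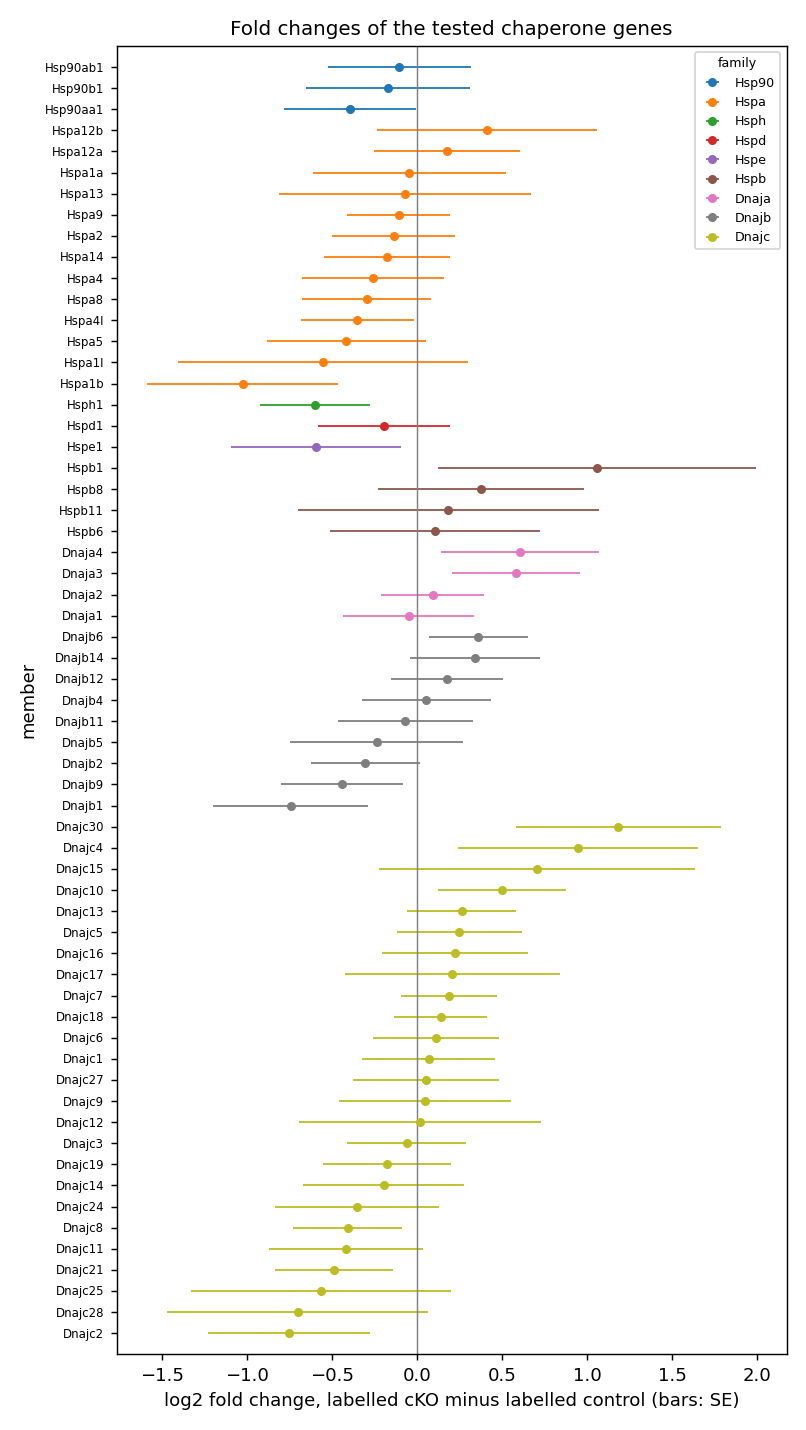
Log2 fold change of each of the 61 tested members, labelled cKO minus labelled control, on log2(value + 1), with bars for the limma standard error, coloured by family. The values run from -1.02 for Hspa1b to 1.18 for Dnajc30, and no member passed the adjusted threshold.

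The Hsp and DnaJ symbols had different counts by sign. Of 23 tested Hsp members, 6 were higher and 17 lower, with a median of -0.17. Of 38 tested Dnaj members, 22 were higher and 16 lower, with a median of 0.05. All 3 Hsp90 genes and 11 of 13 Hspa genes were lower by sign, while all 4 tested Hspb genes and 3 of 4 Dnaja genes were higher. These signs were not stable. When 1 library was left out in turn, 33 of the 61 tested members changed sign at least once, among them 2 of the 3 Hsp90 genes (Hsp90ab1 and Hsp90b1), 9 of the 13 Hspa genes, 3 of the 4 Hspb genes and 2 of the 4 Dnaja genes. The difference between the families was not tested. All members together took 0.705 ± 0.151% of the library total in the libraries labelled cKO and 0.800 ± 0.170% in those labelled control (SD, n = 3 each), a difference smaller than the spread within either group.

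In 5 of the 61 tested members (8.20%) the values of the groups did not overlap, against a background of 4.7% of all tested genes. Higher under the cKO label were 2 (background 2.45%), and lower were 3 (background 2.26%). Without 1 library the background rose each time, while the counts rose or stayed level. The higher count stayed at 2 without control replicate 2 (background 5.3%). The lower count stayed at 3 without cKO replicate 2 (4.12%) and without control replicate 1 (6.34%). There were 5 higher members without cKO replicate 1 (background 11.2%), 5 without cKO replicate 2 (5.58%), 4 without cKO replicate 3 (6.93%) and 8 without control replicate 1 (6.92%). There were 9 lower members of 61 without cKO replicate 3 (background 7.45%) and 13 of 61 without control replicate 2 (6.41%). The remaining counts were 3 higher without control replicate 3 (4.76%), 4 lower without cKO replicate 1 (11%) and 4 lower without control replicate 3 (4.46%).

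Dnaja3 encodes a mitochondrial DnaJ partner of Hspa9. It had 48.9, 48.8 and 48.9 scaled CPM in cKO replicates 1 to 3, against 39.5, 21.3 and 40.003 in control replicates 1 to 3. The libraries labelled cKO were nearly equal and all above those labelled control, of which replicate 2 was lowest. The log2 fold change was 0.58 (SE 0.38, limma unadjusted p = 0.151), and 0.29 without control replicate 2. Dnaja3 spans 4639989 to 4707695 of chromosome 16 (mm10, plus strand), and its exons overlap 160 bases of Vasn on the same strand and 153 of Coro7 on the other.

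Dnajb6, a DnaJ protein that holds back the aggregation of polyglutamine proteins, had 89.4, 121 and 117 in the libraries labelled cKO and 88.4, 76.6 and 87.3 in those labelled control. The groups parted by the small gap between replicate 1 of each. Its log2 fold change was 0.36 (SE 0.29). Of the 50-base stretches of its longest coding transcript, 42.8% also occur in transcripts of other genes, so some of its reads could be placed elsewhere.

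The 3 members that lay lower without overlap are all on the ribosome, splicing and nucleus list, and whether the list differs as a set was not tested. Dnajc2, a ribosome-associated partner of Hspa14, had 44.5, 13.2 and 41.7 in the libraries labelled cKO, against 47.9, 54.8 and 47.7 in those labelled control (log2 fold change -0.76, SE 0.48, and -0.21 without cKO replicate 2). Dnajc8, a splicing-associated protein gene, had 68.2, 43.8 and 71.6 in cKO and 74.8, 78.2 and 86.7 in control libraries (-0.41, SE 0.32, and -0.19 without cKO replicate 2). Dnajc21, which acts in the making of the large ribosomal subunit, had 35.1, 48.5 and 37.3, against 49.3, 49.4 and 73.7 (-0.49, SE 0.35, and -0.30 without control replicate 3). In Dnajc2 and Dnajc8 the lowest library was cKO replicate 2, whereas in Dnajc21 that library was the highest of its group. Of the other members of the ribosome, splicing and nucleus list, the histone chaperone gene Dnajc9 and Dnajc17 overlapped between the groups. Both were higher by sign, at log2 fold changes of 0.05 and 0.21, and both changed sign when 1 library was left out.

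Hsph1 and the inducible Hsp70 gene Hspa1b stood lower by sign and did not part by label. The sign of Hspa1a, the other inducible Hsp70 gene, turned on 1 library. Hsph1, an Hsp110 nucleotide exchange factor (chromosome 5, 149614287 to 149636376, minus strand), had 155, 117 and 220.2 scaled CPM in the libraries labelled cKO, against 224, 213 and 293 in those labelled control. Only cKO replicate 3 and control replicate 2 overlapped. The log2 fold change was -0.60 (SE 0.32, limma unadjusted p = 0.0939), with an adjusted p = 0.9996, and the fold change was -0.38 without cKO replicate 2. Dnajb1, the main DnaJ partner of inducible Hsp70, had 71.1, 25.7 and 93.0 in cKO libraries, against 107, 94.5 and 80.7 in control libraries (-0.74, SE 0.45). Here cKO replicate 2 was far below the other 5 libraries, and without it the log2 fold change was -0.20.

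Hspa1a and Hspa1b, the inducible Hsp70 genes, lie 9951 bases apart on chromosome 17, at 34969190 to 34972156 and 34956436 to 34959238, both on the minus strand. Of the 50-base stretches of their transcripts, 66.3% and 62.3% also occur in other genes, each other among them, so the split of reads between them is uncertain. Hspa1b had 38.2, 10.2 and 34.9 in the libraries labelled cKO and 40.8, 34.3 and 88.8 in those labelled control (log2 fold change -1.02, SE 0.56, limma unadjusted p = 0.0974). Without cKO replicate 2 it was -0.44, and without control replicate 3 it was -0.62. In turn Hspa1a had 43.9, 42.0 and 54.8, against 55.4, 17.8 and 111 (-0.05, SE 0.57, and 0.55 without control replicate 3). Their sum was 82.1, 52.2 and 89.7 in cKO libraries, against 96.2, 52.1 and 199.8 in control libraries, with both libraries numbered 2 lowest and control replicate 3 highest. Control replicate 3 was also the highest library for Hsph1, Hspa4l, Hspe1 and Dnajb9. Hspa1l, whose exons overlap Gm10501 on the other strand by 1778 of 2472 bases, had 2.78, 0.404 and 8.503 in cKO libraries and 5.16, 9.12 and 1.56 in control libraries.

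**Figure D2:**
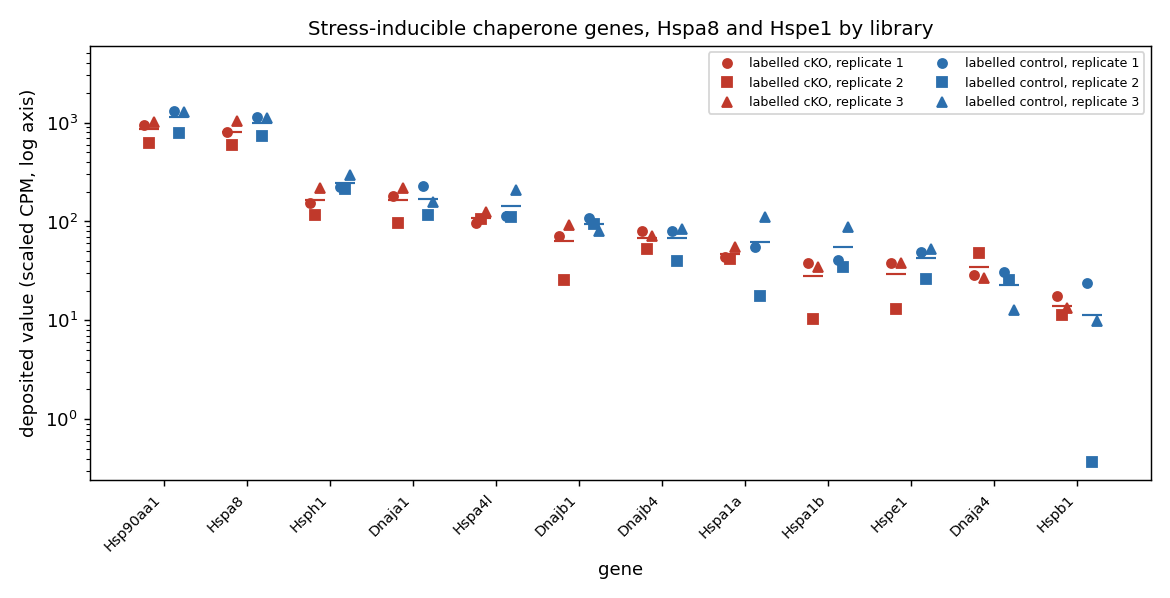
Deposited value in each library for Hspa8, Hspe1 and the stress-inducible members except Hspb8, on a log axis. Libraries labelled cKO are in red left of those labelled control in blue, with bars at the group means. Hspb8, not shown, was highest in cKO replicate 2, at 16.5. Replicate 2 of both labels (squares) lies low for most of these genes, and the groups overlap for each gene shown.

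The rest of the stress-inducible list overlapped between the groups. Hsp90aa1, the inducible cytosolic Hsp90, had 939.5, 623 and 1006 in the libraries labelled cKO, against 1318, 789.9 and 1287 in those labelled control (log2 fold change -0.40, SE 0.39, and -0.18 without cKO replicate 2). Dnaja1, a cytosolic partner of Hspa8, had 180.4, 97.6 and 216, against 230.3, 117 and 157. Hspa4l, an Hsp110 relative, had 95.8, 105 and 125 in cKO libraries and 114, 111 and 207 in control libraries. Dnajb4 had 79.7, 52.9 and 71.3 in cKO libraries and 80.4, 39.6 and 84.2 in control libraries. Dnaja4 had 28.9, 47.5 and 26.8, against 30.5, 25.6 and 12.7, and its exons overlap those of Wdr61 on the other strand by 1581 of 3589 bases. Of the 11 members of this list, 0 were called, 4 were higher and 7 lower by sign, and the median was -0.05, beside -0.02 over all tested genes.

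The constitutive cytosolic chaperones overlapped as well. Hspa8, the constitutive Hsp70 that also strips clathrin from vesicles, had 809.6, 594 and 1033 in the libraries labelled cKO and 1138, 729 and 1108 in those labelled control. Hsp90ab1, the constitutive Hsp90, had 955, 663 and 1230.3, against 1288, 636 and 1179. In both genes replicate 2 was the lowest library of its group. Hspa4, an Hsp110 relative, had 203, 106 and 250.4 in cKO libraries and 293, 129 and 244 in control libraries. Dnaja2, another partner of Hspa8, varied less, with 134, 121 and 194 in cKO libraries and 127, 131 and 155 in control libraries. Hspa2 had 46.3, 48.5 and 59.9, against 41.8, 83.3 and 51.7, and Hspa14 had 36.4, 44.9 and 26.0, against 41.6, 44.3 and 33.6. Hspa12b was lower still, at 2.35 to 7.47 in any library. Reads of Hspa8 and Hsp90aa1 are open to misplacement, since 74.8% and 58.5% of their 50-base stretches also occur in other genes.

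Some chaperones of the endoplasmic reticulum, Hspa5 and Hsp90b1 among them, varied widely between libraries of the same label. The list as a whole did not stand out. Its median range over the 6 libraries was 1.28 on the log2(value + 1) scale, beside 1.31 over all members and 1.62 over all tested genes. Hspa5 encodes BiP, the Hsp70 of this compartment. It had 458, 155 and 309 scaled CPM in the libraries labelled cKO, against 569.9, 221 and 416 in those labelled control (log2 fold change -0.42, SE 0.47, and 0.0086 without cKO replicate 2). Hsp90b1, the Hsp90 of the compartment, had 764, 269.9 and 514 in cKO libraries and 903, 317 and 531 in control libraries (-0.17, SE 0.48, and 0.23 without cKO replicate 2). Dnajc3, a luminal BiP partner that also restrains the kinase PERK, had 144, 92.3 and 117, against 177, 86.4 and 115. These 3 genes, whose promoters hold the stress element printed above, were each highest in replicate 1 and lowest in replicate 2 of both labels.

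Another 3 members of the compartment were also lowest in replicate 2 of both labels. Dnajb11, a luminal BiP partner, had 50.9, 30.0 and 38.5 in cKO libraries, against 58.7, 28.8 and 40.2 in control libraries, in the same order. Hspa13, a microsomal Hsp70 relative, had 86.7, 20.6 and 62.0, against 90.3, 14.0 and 100.2. Dnajb9, which delivers BiP to the stress sensor IRE1, had 69.4, 38.5 and 71.5, against 77.5, 63.1 and 98.8. Replicate 2 was the lowest library of both labels in these 6 of the 13 tested members of the list (46.2%), and not in the other 7. The share was 23.8% of all tested genes. This was not particular to the compartment, with 7 of 11 on the stress-inducible list (63.6%) and 5 of 10 on the mitochondrial list (50%). It was 0% on both the synaptic and the aggregate-handling lists. Dnajc10, a disulfide reductase with a J domain, had 124, 145 and 149.8 in the libraries labelled cKO and 164, 60.6 and 95.0 in those labelled control (log2 fold change 0.50, SE 0.38, and 0.15 without control replicate 2 or 0.86 without control replicate 1), so cKO replicate 2 was not low. Dnajc1 had 78.8, 69.1 and 35.2, against 70.1, 43.4 and 54.7. Dnajc18, a membrane member, varied least, at 117 to 131 in cKO libraries and 107 to 118 in control libraries. Dnajb12, a membrane member, had 40.8, 59.9 and 50.7 in cKO libraries, against 44.3, 43.6 and 44.2 in control libraries, highest in cKO replicate 2. Dnajc16 had 28.3, 39.5 and 64.8, against 34.0, 50.7 and 26.2, so that replicate 2 was the highest of the control libraries. Dnajb14 had 49.7, 31.6 and 52.7 in cKO libraries and 43.5, 35.2 and 26.1 in control libraries. Dnajc25 had 7.005, 0.505 and 6.95, against 6.36, 5.52 and 5.44, with cKO replicate 2 alone far below the others. Of 13 tested members of this list, 0 were called, 6 were higher and 7 lower by sign, and the median was -0.06.

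**Figure D3:**
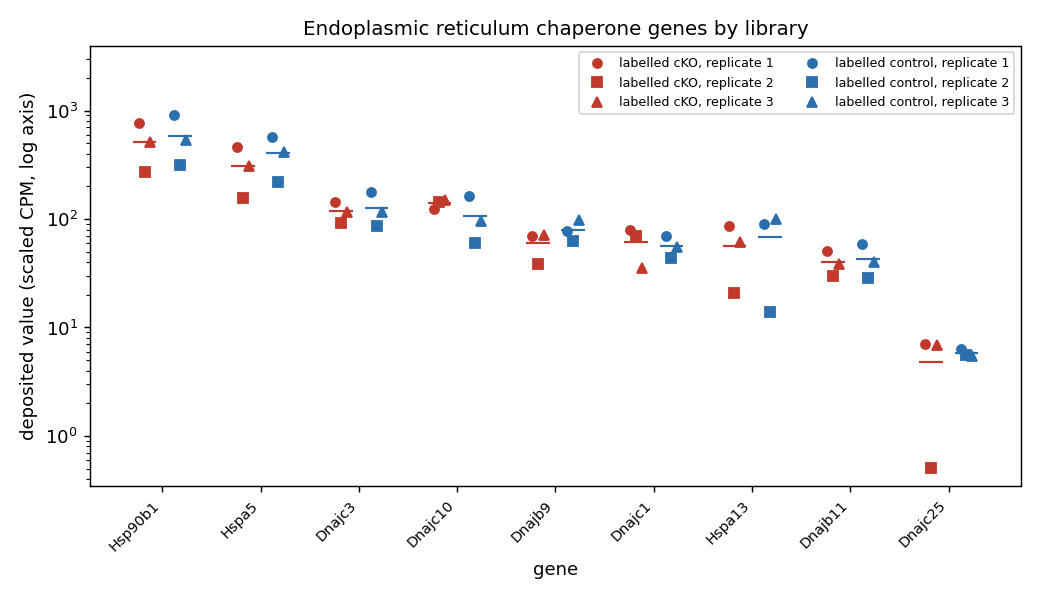
Deposited value in each library for 9 chaperone genes of the endoplasmic reticulum, on a log axis, with libraries labelled cKO in red left of those labelled control in blue and bars at the group means. In Hsp90b1, Hspa5, Dnajc3 and Dnajb11 replicate 1 (circles) is highest and replicate 2 (squares) lowest under both labels, and in Dnajc10, Dnajc1 and Dnajc25 this order does not hold.

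Counted over all members, both libraries numbered 2 lay below the other 4 in 21 of 61 members (34.4%), against 18.8% of all tested genes. They lay above the other 4 in 3 members (4.92%), against 11.7% of all tested genes. The 21 included all 3 Hsp90 genes, Hspa1a, Hspa1b, Hspa4, Hspa5, Hspa8, Hspa9, Hspa13, Hspd1, Hspe1 and Dnaja1. Control replicate 1 was the highest of all 6 libraries in 17 members (27.9%), against 11.3% of all tested genes. Both libraries numbered 2 also had the fewest detected genes and low sums of pericyte, smooth muscle and fibroblast markers, 234 in cKO and 495 in control, against 2762 to 2970.1 in the other libraries labelled cKO and 708 to 5008 in the other libraries labelled control. All 14 of those markers were in the table. The 10 endothelial markers summed to 84.5 and 79.1 in the cKO and control libraries numbered 2, and to 108 to 197 in the other 4. The 12 astrocyte markers were highest within each label there, at 2353 in cKO and 1210.4 in control, against 1123 to 1307 in the other cKO libraries and 849.7 to 1044 in the other control libraries. The part of cell makeup or RNA quality in these counts was not tested.

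**Figure D4:**
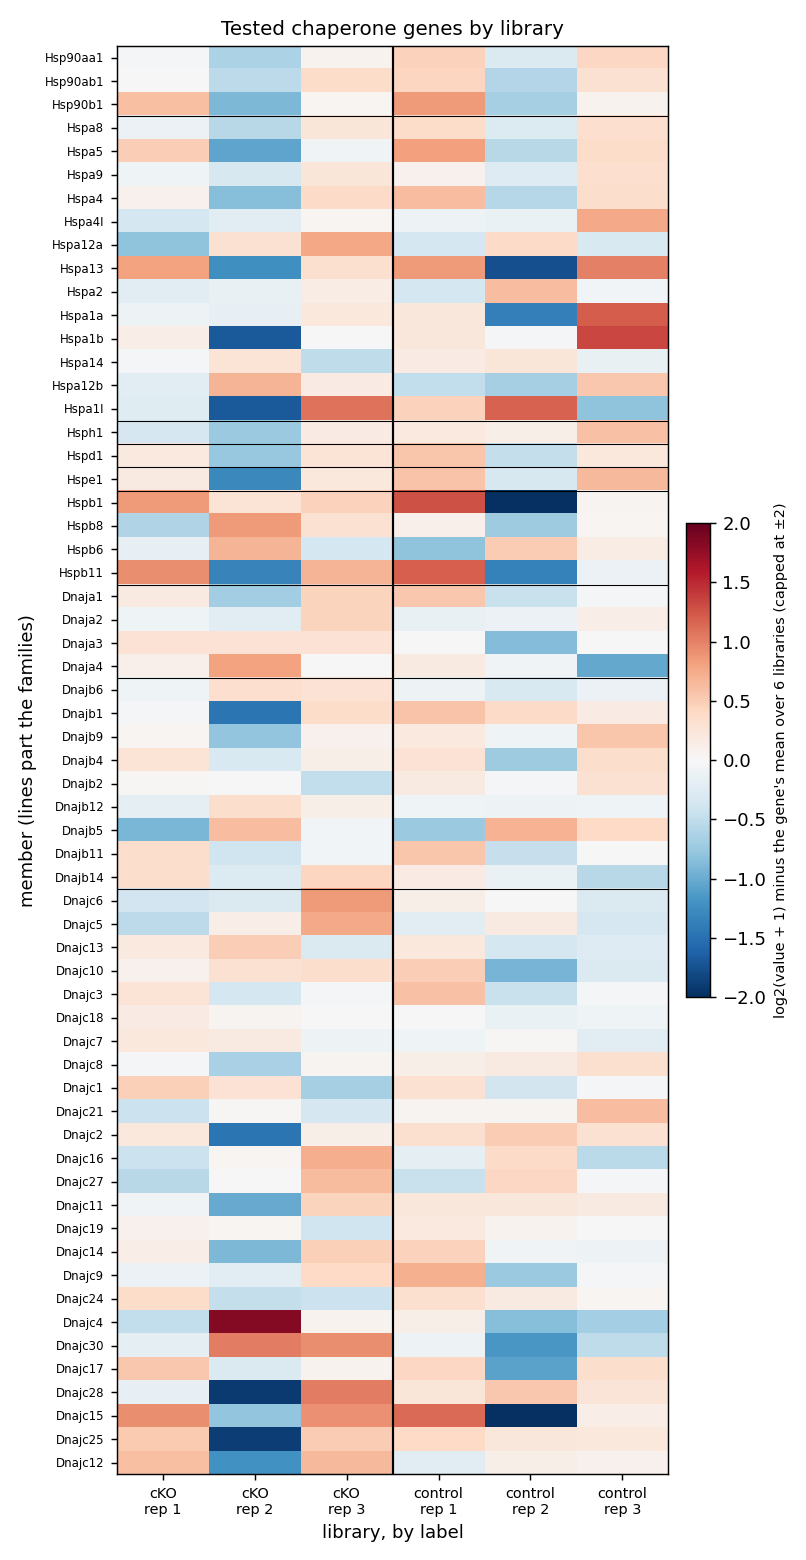
Log2(value + 1) of each of the 61 tested members minus its mean over the 6 libraries, members in rows by family and libraries in columns, cKO left of control, colours capped at 2 in either direction. Replicate 2 of both labels is blue for the Hsp90 genes, Hspa5, Hspa4 and Hspd1, and cKO replicate 3 is red for Dnajc5 and Dnajc6.

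In the mitochondria, Hspa9, the Hsp70 of the matrix, varied little, with 203, 173 and 253 in the libraries labelled cKO and 229, 179 and 271 in those labelled control. Hspd1 had 138, 70.5 and 145, against 176, 85.9 and 139.8, and its co-chaperonin Hspe1 had 37.8, 13.0 and 38.4, against 49.4, 26.4 and 52.2 (log2 fold change -0.59, SE 0.50, and -0.10 without cKO replicate 2). For these 2 genes, 44.8% of the 50-base stretches in each also occur in other genes. Dnajc30, a mitochondrial DnaJ protein tied to respiratory complex I, had 7.87, 19.4 and 18.1 in cKO libraries, against 8.39, 3.46 and 6.06 in control libraries. It had the smallest unadjusted p of all members (log2 fold change 1.18, SE 0.60, limma unadjusted p = 0.0774). Only cKO replicate 1 and control replicate 1 overlapped. Its exons, on chromosome 5 from 135064202 to 135065862, overlap Bud23 on the other strand by 436 of 1661 bases. How the counting treated strand was not given in the sources used here.

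Dnajc4 had 5.76, 32.7 and 8.92 in cKO libraries, against 9.22, 4.27 and 4.89 in control libraries (log2 fold change 0.95, SE 0.71). This rested on cKO replicate 2, without which it was 0.26. Dnajc15, which restrains respiratory complex I, had 10.6, 2.53 and 10.5, against 12.4, 0.221 and 5.67, the last but one from 3 reads. Dnajc28 had 5.81, 1.01 and 14.4 in cKO libraries and 8.02, 10.004 and 8.11 in control libraries. Dnajc11, of the inner membrane organising system, had 27.0, 13.6 and 39.2, against 33.3, 33.4 and 32.3, and Dnajc19, of the import motor, had 30.9, 29.9 and 21.7, against 33.4, 30.3 and 28.9. Of the 10 members of the mitochondrial list, 0 were called, and 4 were higher and 6 lower by sign, with a median of -0.14.

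Of the small heat shock protein genes tested, Hspb1 averaged 12.3 scaled CPM per kb of exon, above the median gene at 5.65, and Hspb8, Hspb6 and Hspb11 averaged 4.79, 3.72 and 1.51, below it. Hspb1, which caps unfolded proteins and actin filaments, had 17.7, 11.4 and 13.2 in the libraries labelled cKO, against 23.9, 0.368 and 9.78 in those labelled control. It had the widest range of any member, 4.18 on the log2(value + 1) scale, which rested on control replicate 2. Of its 50-base stretches, 51.6% also occur in other genes, among them Hsp25-ps1. Hspb8, which works with Bag3 in selective autophagy, had 5.37, 16.5 and 10.99, against 9.40, 4.93 and 8.89. Hspb6 had 7.005, 13.4 and 6.06, against 4.15, 11.8 and 8.95. Hspb11, an intraflagellar transport protein despite its name, had 5.33, 0.303 and 4.29, against 6.54, 0.294 and 2.06.

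On the synaptic vesicle, clathrin and endosome list, Dnajc5, Dnajc6 and Dnajc27 were highest in cKO replicate 3, the library with the most neuronal signal. Dnajc13 was not, and Dnajc14 only by a small margin. Dnajc5 encodes cysteine string protein, which keeps vesicle fusion proteins folded. It had 117, 184 and 286 in the libraries labelled cKO, against 144, 190.4 and 134 in those labelled control (log2 fold change 0.25, SE 0.37, and -0.0702 without cKO replicate 3). Dnajc6 encodes auxilin, which recruits Hspa8 to uncoat clathrin vesicles, and had 147, 157 and 346, against 208, 193 and 158. Both peaked in cKO replicate 3 and were lowest in cKO replicate 1. The 16 neuronal markers summed to 1718, 5464 and 8714 in cKO libraries and 3119, 5104 and 3496 in control libraries, with the same libraries at the ends, and their part in these levels was not tested. Dnajc13, an endosomal DnaJ protein, did not share this order, with 191, 234 and 136, against 193, 131 and 139. Dnajc14 had 27.3, 12.8 and 34.8, against 34.7, 23.6 and 22.9, nearly level in cKO replicate 3 and control replicate 1. Whether Dnajc14 belongs on this list by its role was not checked. Dnajc27 had 23.9, 35.96 and 55.9 in cKO libraries and 25.9, 47.7 and 34.8 in control libraries. Hspa12a, a divergent Hsp70 gene, had 53.4, 116 and 161, against 73.8, 124 and 75.7, also highest in cKO replicate 3 and lowest in cKO replicate 1.

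Among DnaJ genes that handle aggregating clients, Dnajb2, a neuronal protein that sends clients to the proteasome, had 59.5, 58.7 and 41.5 in the libraries labelled cKO and 66.5, 57.5 and 72.1 in those labelled control. Dnajc7, which binds both Hsp70 and Hsp90, varied little, with 135, 132 and 109, against 109.7, 118 and 100.1. Dnajb5 had 20.4, 60.8 and 37.9 in cKO libraries and 23.1, 64.3 and 52.4 in control libraries, lowest in replicate 1 of each label. Dnajc12, a partner of the aromatic amino acid hydroxylases, was at 0.808 to 5.56. Dnajc24, which acts in diphthamide synthesis, had 19.9, 10.6 and 11.03, against 19.1, 17.4 and 15.6. Of the 6 tested members of the aggregate-handling list, 3 were higher and 3 lower by sign. The list includes Dnajc12 and Dnajc24, whose roles given above are other ones.

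Pairs of members were set against each other within each library, so that a factor shared by a whole library cancels. The 5 pairs were chosen after the levels had been seen, so no test is given. The Hsp90aa1 value was 0.984, 0.940 and 0.818 times that of Hsp90ab1 in the libraries labelled cKO, against 1.02, 1.24 and 1.09 times in those labelled control, so the inducible gene stood lower against the constitutive gene under the cKO label, without overlap. The Hspa5 value was 0.600, 0.574 and 0.601 times that of Hsp90b1 in cKO libraries, against 0.631, 0.696 and 0.784 times in control libraries, also without overlap. The Hspd1 value was 3.64, 5.41 and 3.79 times that of Hspe1, against 3.57, 3.25 and 2.68 times, parting by a small gap between replicate 1 of each label. Hspa1a over Hspa1b (1.15, 4.12 and 1.57, against 1.36, 0.519 and 1.25) and Hspa8 over Hspa5 (1.77, 3.83 and 3.34, against 2.00, 3.30 and 2.66) overlapped. A ratio shows unequal levels of a pair, not which gene of the pair differs. How often other pairs of genes part by label in this way was not counted. Of the 50-base stretches, 58.5% in Hsp90aa1 and 4.49% in Hsp90ab1 also occur in other genes, so misplaced reads could affect their ratio unequally.

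**Figure D5:**
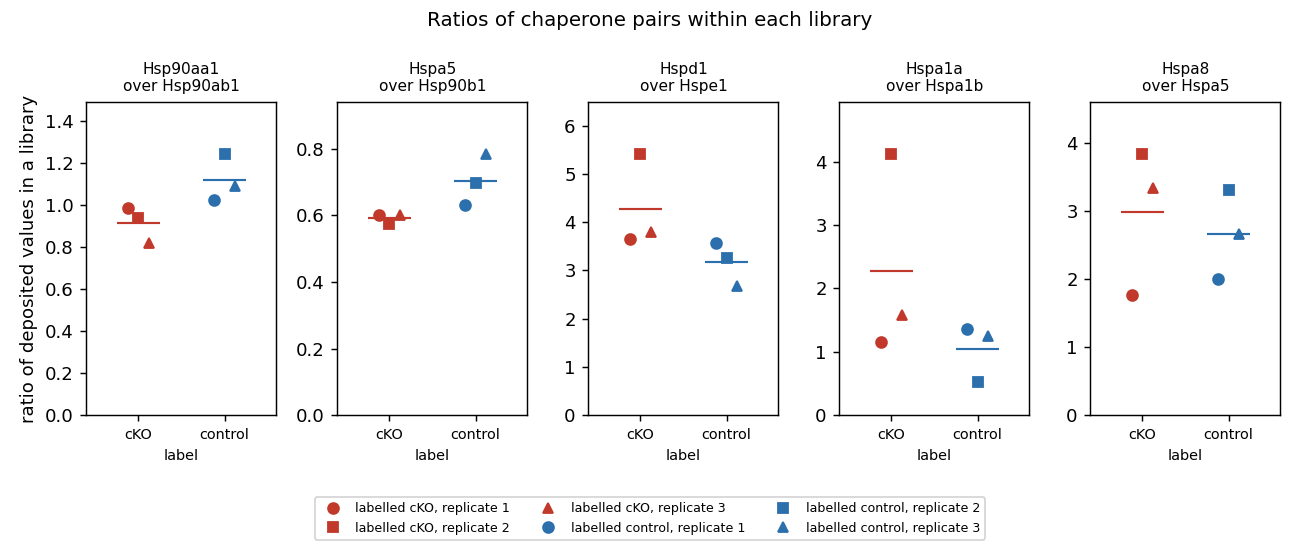
Ratio of the deposited values of 5 pairs of members in each library, libraries labelled cKO in red left of those labelled control in blue, with bars at the group means and axes from 0. The ratio of Hsp90aa1 to Hsp90ab1 is 0.818 to 0.984 in cKO libraries and 1.02 to 1.24 in control libraries. The ratios of Hspa1a to Hspa1b and of Hspa8 to Hspa5 overlap. The pairs were chosen after the levels had been seen.

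The other genes of the chaperone pathway gave no call either. Over 65 tested regulators, co-chaperones, chaperonin subunits and other stress targets, 0 were called higher and 0 lower in limma. The background was 0% of all tested genes in each direction. At an unadjusted p under 0.05 there were 0 as well, against 0.338% of all genes higher and 0.514% lower. In edgeR and DESeq2 0 were also called, against 0% in edgeR and, in DESeq2, 0% higher and 0.00678% lower. By sign 29 were higher and 36 lower, with a median log2 fold change of -0.03. Over all tested genes 7102 were higher and 7694 lower, with a median of -0.02. Hsf1, the main heat shock factor, had 27.1, 34.2 and 19.6 in the libraries labelled cKO, against 19.7, 52.4 and 30.7 in those labelled control. Hsf2 had 61.1, 83.0 and 42.6, against 45.8, 32.7 and 49.1. In Fkbp8, an Hsp90-binding immunophilin of mitochondria, all cKO libraries (67.6, 134 and 114) lay above the control libraries (64.6, 61.3 and 58.2), with a log2 fold change of 0.71 (SE 0.34, limma unadjusted p = 0.0605). Clpb, a mitochondrial disaggregase gene, also lay higher without overlap, with 38.0, 38.0 and 34.9, against 29.0, 24.2 and 29.4. These were 2 of the 65 genes, with 0 lower, near the background of 2.45% of all tested genes higher. The chaperonin subunit gene Cct5 had 141, 23.0 and 137 in cKO libraries and 162, 75.8 and 173 in control libraries, lowest in both libraries numbered 2. The small heat shock protein gene Cryab, which is abundant in oligodendrocytes, had 209, 121 and 88.5, against 198, 129.5 and 602, its highest value in control replicate 3.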

How the data were processed

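RNA was measured in 3 libraries labelled cKO and 3 labelled control, grouped by their titles. Per the submitters' processing notes, Trimmomatic, HISAT2, featureCounts and edgeR were used, with no versions, on the mm10 build. Libraries were made with the Ovation SoLo kit, per the labels' protocols. Not given in the sources used here were the gene annotation, the use of strand and the treatment of multi-mapping reads. The deposited values were handled as signal, since the authors' CPM carried a further factor per library of 0.962 to 1.03. In each library 100% of values were within 0.001 of whole multiples of 1 step, which gave back whole reads.

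Groups were compared with limma 3.58.1 (R 4.3.3, trended prior variance) on log2(value + 1). The 14796 genes tested reached 1 or more in 3 or more libraries. P-values were adjusted over all of them by Benjamini-Hochberg and called under 0.05. Fold changes understate those of low genes. The design had assumed CPM, and the same test was kept. Floors are 3 reads and cover counting error only. Lengths, positions, overlaps and shared 50-base stretches came from GENCODE M21 (GRCm38, the same assembly as mm10), and promoters from RefSeq. Named were all tested Hsp genes, the stress-inducible, endoplasmic reticulum, mitochondrial and synaptic lists, the 4 smallest p per direction, the 5 highest means, the 5 widest ranges, members without overlap, and up to 3 genes by p of each pathway list. Dnaja2, Dnajb2, Dnajb3, Dnajb5, Dnajb7, Dnajc7, Dnajc9, Dnajc12, Dnajc17, Dnajc24 and Hspb2 were named after their values were seen. Members and lists were chosen with earlier results of these data known. The procedure was tested on simulated data. Alternatives were other pseudocounts, filters and scalings, array weights, a replicate block, left-out libraries, and edgeR 4.0.16 and DESeq2 1.42.0 on recovered reads.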

Additional observations from a re-analysis of the deposited data

How the results depend on the processing

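No setting called a member or a pathway gene, in either direction. Over all tested genes only DESeq2 called any, 1 gene lower. Of 18 fold changes recomputed, 14 kept their sign under all settings. These were of members with the smallest p or without overlap, and of genes added by hand, Fkbp8 among them. That choice favoured stable signs. Of all 61 tested members, 33 changed sign at least once without 1 library. Without 1 library, the log2 fold change ran from -0.0702 to 0.57 for Dnajc5, from -0.55 to 0.23 for Hsp90b1, from -0.74 to 0.55 for Hspa1a and from -0.80 to 0.0086 for Hspa5, so the direction of these 4 turned on 1 library. The median over tested members was -0.28 without control replicate 2, the lowest value without 1 library, and 0.10 without cKO replicate 2, the highest. Over tested pathway genes it ran from -0.14 to 0.09 without 1 library. Members without overlap ran from 2 to 8 higher and from 3 to 13 lower without 1 library, and were 5 higher and 13 lower without both libraries numbered 2, against 10.4% and 9.56% of all tested genes. With the replicate number as a block, 0 members were called, the median stayed at -0.06, and Hsph1 and Hspa1b had an unadjusted p under 0.05, 3.28% of members against 2.07% of all genes in that fit. Without 1 library, unadjusted p fell under 0.05 for Dnajc30 and Hspa1b (without cKO replicate 1, 6.68% of all genes), Dnajb1 and Hsph1 (without cKO replicate 3, 1.33%) and Dnajc10 (without control replicate 1, 1.39%). Deviations of same-numbered libraries correlated over genes at 0.49, 0.30 and 0.03, so the numbers were not taken as pairs, though each library correlated best with its own number. With no filter, Hspb2 alone of 71 members had an unadjusted p under 0.05, against 1.18% of all genes. Depth limits the members under about 1 scaled CPM.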

Other observations

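Among the members below the filter, Hspb2, a small heat shock protein gene of muscle, had 0, 0 and 1 reads in the libraries labelled cKO, against 9, 31 and 30 reads in those labelled control, so the groups did not overlap. It was picked out after its values were seen. Hspb2 lies on chromosome 9 from 50751078 to 50752354, and its exons overlap those of Cryab on the other strand by 252 of 834 bases. How the counting treated strand was not stated, and the part of Cryab reads in these counts was not tested. The members Dnajb3 and Dnajb7 had 17, 0 and 7 reads and 6, 0 and 15 reads in cKO libraries, against 5, 0 and 34 reads and 8, 0 and 33 reads in control libraries, with both libraries numbered 2 at 0 reads.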
